A study of Homo sapiens with 12 samples.

Results

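The BCL2 family of apoptosis regulators was examined through 10 named genes of the 35238 in the deposited expression table: 3 pro-survival members (BCL2, BCL2L1 and MCL1), 2 pore-forming members (BAX and BAK1) and 5 BH3-only members (BBC3, PMAIP1, BCL2L11, BID and BAD). The members were picked by name and role, with earlier results of these data known. The libraries were poly(A) RNA sequencing of HK-2 cells, a human kidney proximal tubule line immortalised with human papillomavirus oncogenes. All cells were transfected with 10 nM of siRNA, either a scrambled control (SCR) or a duplex against POLR2A (siB), and received at the same time 25 µM of aristolochic acid I (AAI), a plant nephrotoxin that forms DNA adducts, or the same volume of its solvent DMSO, for 24 hours. This gave 4 groups of 3 libraries: SCR DMSO, SCR AAI, siB DMSO and siB AAI. All came from 1 cell line, and nothing stated that replicates were separate cultures, so p-values measure the spread between these libraries, which may be technical.

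BCL2 proteins set the threshold at which the mitochondrial outer membrane becomes permeable and cytochrome c is released to activate caspases. BAX and BAK1 form the pore, the pro-survival members hold them and the BH3-only proteins in check, and BH3-only proteins report stress by binding pro-survival members or by activating BAX and BAK1 directly. PMAIP1 (NOXA) binds MCL1 preferentially, BBC3 (PUMA) and BCL2L11 (BIM) bind all pro-survival members, BID is activated by caspase cleavage downstream of death receptors, and BAD is controlled by phosphorylation. Several are also set by protein turnover and modification, which RNA levels do not show. PMAIP1, BBC3 and BAX are well known p53 target genes, and tubule cell death is a known outcome of AAI injury.

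The targeted gene was checked first. POLR2A, which encodes the largest RNA polymerase II subunit, averaged 284 ± 24.2 CPM (read counts scaled to a common library total; SD, n = 3) in vehicle with scrambled siRNA and 139.7 ± 2.61 with siB (limma adjusted p = 0.505). Under AAI it was 707 ± 30.1 with scrambled siRNA and 232 ± 29.5 with siB (adjusted p = 5.8e-04). The siB libraries lay below the SCR libraries in both treatments. Depth ran from 15844015 to 42805294 reads, and each member had between 69 and 23192 reads in every library, so none was limited by detection. Of 10 proximal tubule markers 3 reached a mean of 1 CPM, mostly GGT1, while LRP2, CUBN, AQP1 and SLC22A6 were at or near 0, so the proximal tubule origin of the line was little visible in RNA. Of 10 kidney epithelium markers 9 reached 1 CPM. Summed leukocyte markers, mostly CD68, held 60.1 to 98.1 CPM, fibroblast markers 13.2 to 54.0 CPM and endothelial markers 1.17 to 5.62 CPM. SCR DMSO replicate 2 stood apart on the second principal component (18.3% of the variance), at -62.2 against 57.8 and 20.03 for its group. Of the 12 libraries it held the highest value for 4 members and the lowest for 2, and SCR DMSO replicate 1, at the other end of that component, the highest for 2 and the lowest for 3. The ratio of replicate 2 to the mean of the other SCR DMSO libraries ran from 0.561 for BCL2 to 2.33 for BBC3.

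On hg38 (GENCODE), the pro-survival genes span chromosome 18, 63123346 to 63320128 (BCL2, minus strand), chromosome 20, 31664452 to 31723989 (BCL2L1, minus) and chromosome 1, 150560895 to 150579738 (MCL1, minus). The pore-forming genes span chromosome 19, 48954815 to 48961798 (BAX, plus) and chromosome 6, 33572547 to 33580293 (BAK1, minus). The BH3-only genes span chromosome 19, 47220822 to 47232766 (BBC3, minus), chromosome 18, 59899996 to 59904305 (PMAIP1, plus), chromosome 2, 111119378 to 111168444 (BCL2L11, plus), chromosome 22, 17734138 to 17774770 (BID, minus) and chromosome 11, 64269830 to 64284704 (BAD, minus). BAX and PMAIP1 overlap no other annotated gene, while the others overlap at least 1.

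The upstream sequences of PMAIP1, BBC3 and BAK1 are shown because each of these genes had the largest absolute log2 difference of the members in at least 1 comparison. They come from the RefSeq windows of 250 bases before each gene start (GRCh38.p14), cut where a window ran into the gene's GENCODE span, and are written 5′ to 3′ on the strand of the gene. Capitals mark matches, on either strand, to GGGCGG, the core of a GC box, to CACGTG, an E-box, to TGANTCA, an AP-1 type motif, or to the p53 half-site consensus. The PMAIP1 stretch is chr18:59899746-59899995 on the plus strand, that of BBC3 is chr19:47232767-47232917 on the minus strand, and that of BAK1 is chr6:33580294-33580526 on the minus strand.
PMAIP1: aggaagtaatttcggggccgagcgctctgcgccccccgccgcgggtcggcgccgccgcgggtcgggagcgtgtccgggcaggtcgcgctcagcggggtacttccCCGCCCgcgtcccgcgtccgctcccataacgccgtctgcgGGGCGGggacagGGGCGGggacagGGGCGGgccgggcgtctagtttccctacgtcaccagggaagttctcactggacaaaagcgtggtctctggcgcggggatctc
BBC3: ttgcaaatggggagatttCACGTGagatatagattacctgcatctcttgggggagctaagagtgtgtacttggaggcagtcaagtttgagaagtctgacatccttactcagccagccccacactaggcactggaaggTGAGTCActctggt
BAK1: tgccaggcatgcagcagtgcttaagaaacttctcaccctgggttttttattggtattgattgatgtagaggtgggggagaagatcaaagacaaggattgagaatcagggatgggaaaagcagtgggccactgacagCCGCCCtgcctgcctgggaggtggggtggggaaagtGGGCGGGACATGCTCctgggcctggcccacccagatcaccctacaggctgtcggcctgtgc

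The PMAIP1 window held 4 GC box cores, 3 on the gene's strand and 1 on the other. At least 4 such matches occurred in 7.63% of 35116 RefSeq windows. The BBC3 window held an E-box, a motif found in 6.34% of windows, and TGAGTCA, a form of TGANTCA, which 6.57% held. The BAK1 window held the half-site GGACATGCTC, which overlaps the last base of a GC box core, and 5.57% of windows held a p53 half-site. A full p53 site was in none of the windows of the 9 members with an entry and in 0.0256% of all windows. BAX, not printed, held 4 E-boxes, a count reached by 5 of the 35116 windows (0.0142%), of which the BAX window was 1. Of the 9 members, 6 had a GC box core in at least 1 window, and 3 (BAX, BBC3 and BID) had an E-box. Of all windows 42.6% held a GC box core. The 9 members had 15 windows, several for some genes, so counts by gene and shares by window are not in the same unit. TATAAA was found for 1 member, BCL2L1, and in 10.7% of all windows, and TGACGTCA for 0 members and in 1.65%. These matches are letters in a window, and nothing measured here shows binding.

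Set beside each other per length, as CPM per kilobase (kb) of annotated exon in SCR DMSO, the members spanned a wide range. BCL2L1, which encodes BCL-XL, was the most abundant at 99.8 ± 26.1 CPM per kb (SD, n = 3), above 97.8% of 13979 genes compared. MCL1, a short-lived pro-survival protein, followed at 48.1 ± 17.0 CPM per kb. BAX (31.9), PMAIP1 (23.1), BAK1 (22.0), BAD (19.6) and BID (14.6 CPM per kb) lay between, and BBC3 (5.31), BCL2L11 (5.24) and BCL2 (2.99 CPM per kb) were the least abundant. Of these neighbours, BAX, PMAIP1, BAK1 and BAD differed by less than the SD of BAX (15.9 CPM per kb). In siB AAI the level of PMAIP1 was 70.7 ± 6.58 CPM per kb, second to BCL2L1 at 95.4 ± 5.52 CPM per kb, and above 97.0% of genes. BCL2 was at 1.41 ± 0.244 CPM per kb there. Exon lengths are from GENCODE and isoforms were not separated, so these are approximate orders.

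**Figure D1:**
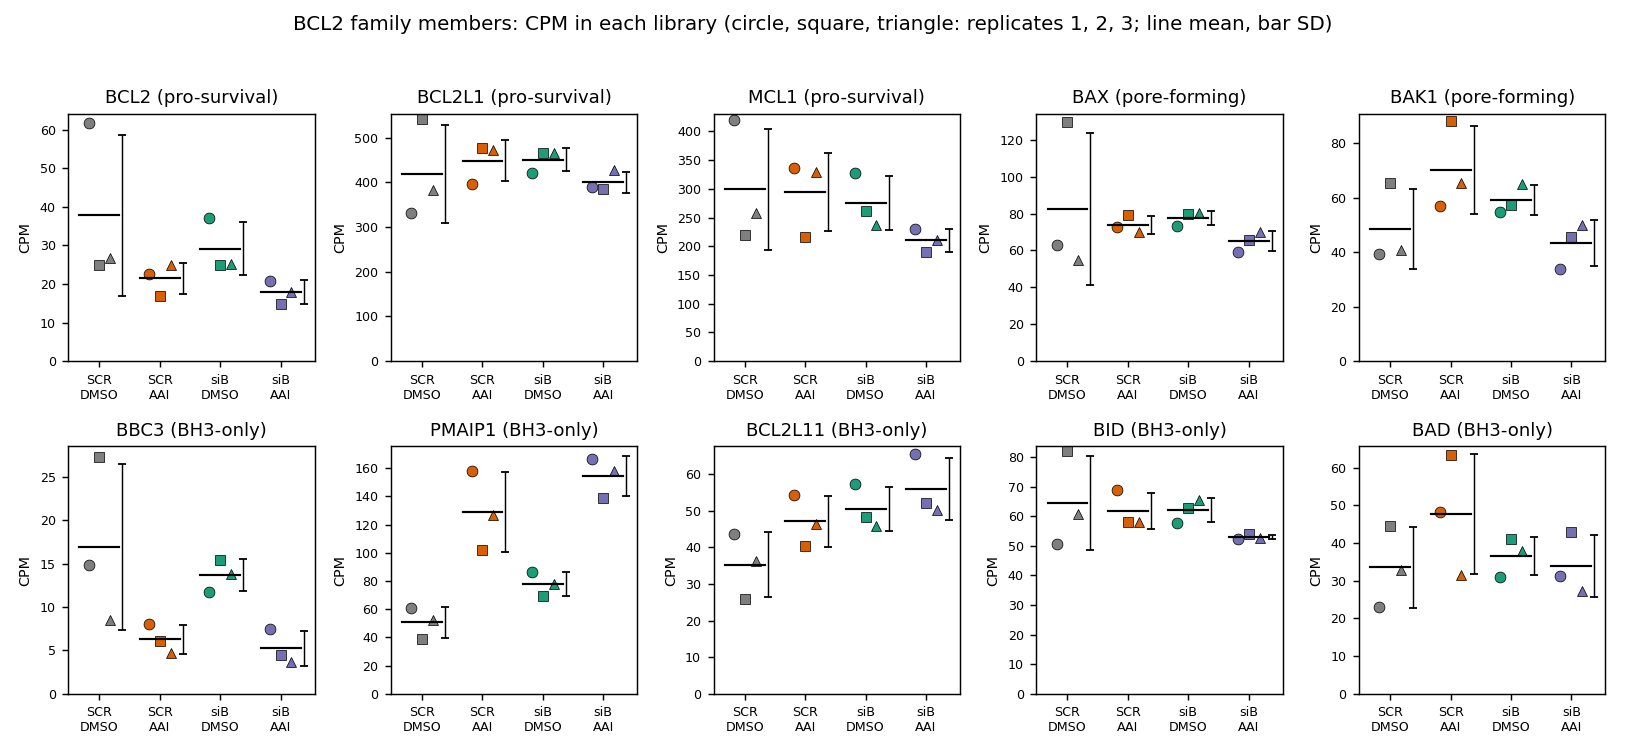
CPM of each of the 10 members (vertical axis, linear, from 0) in each library of the 4 groups (horizontal axis), with replicates 1, 2 and 3 as circle, square and triangle, the mean as a line and the SD as a bar. PMAIP1 is higher in all 6 AAI libraries (102 to 167 CPM) than in the 6 DMSO libraries (39.1 to 86.7 CPM), BBC3 is lower in all AAI libraries, and the SCR DMSO libraries spread widely for BCL2, BAX and BBC3.

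The first comparison asked how AAI changed the family in cells with scrambled siRNA. PMAIP1 rose and no other member passed the test. The PMAIP1 level was 60.5, 39.1 and 52.1 CPM in the 3 SCR DMSO libraries and 158, 102 and 127 CPM in the 3 SCR AAI libraries. Every AAI library lay above every DMSO library. The difference was 1.33 on the log2(CPM + 1) scale (SE 0.26, 95% confidence interval 0.74 to 1.93, limma adjusted p = 0.0136), which also passed the 2-fold limit used to call a gene. So 1 of the 10 members was raised and 0 were lowered, against 7.73% raised and 2.73% lowered of the 14228 genes tested. At the adjusted p alone these shares were 8.98% and 3.36%, with the same 1 and 0 members. The PMAIP1 call was lost without SCR DMSO replicate 3 (adjusted p = 0.0523), SCR AAI replicate 1 (0.0655) or SCR AAI replicate 3 (0.0664), with the log2 difference between 1.13 and 1.49 over 15 alternatives. Without SCR DMSO replicate 2 it was 1.16 (adjusted p = 0.00473).

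BBC3 levels moved the other way without passing. They were 14.9, 27.3 and 8.53 CPM in SCR DMSO and 8.01, 6.07 and 4.74 CPM in SCR AAI. All 3 AAI libraries lay below all 3 DMSO libraries, but SCR DMSO replicate 3 was only slightly above the highest AAI library. The log2 difference was -1.18 (SE 0.42, interval -2.14 to -0.22, adjusted p = 0.112). With the replicate number as a block the same difference passed both limits (adjusted p = 0.0341), making 1 member raised and 1 lowered where 9.69% of genes were raised and 3.79% lowered, as it did with the spread estimated over all 4 groups (0.0288), and without SCR DMSO replicate 2 it was -0.78 (adjusted p = 0.0885). PMAIP1 and BBC3 were the 2 members whose groups did not overlap, where 22.2% of all genes tested were higher and 11.5% lower without overlap.

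The pro-survival members did not pass the test with AAI in SCR cells. BCL2 was at 61.7, 24.8 and 26.7 CPM in DMSO and 22.5, 16.9 and 24.9 CPM in AAI, and the DMSO mean rested on replicate 1. Its log2 difference was -0.68 (interval -1.55 to 0.19, adjusted p = 0.294). MCL1 had a log2 difference of 0.01 (interval -0.69 to 0.70) and BCL2L1 one of 0.12 (interval -0.43 to 0.68), so a change of the 2-fold size lay outside both intervals.

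Of the pore-forming pair, BAK1 was at 39.4, 65.5 and 40.9 CPM in SCR DMSO and 56.8, 88.0 and 65.2 CPM in SCR AAI. The groups overlapped through SCR DMSO replicate 2 alone. The log2 difference was 0.53 (interval -0.12 to 1.19, adjusted p = 0.276), and 0.76 (adjusted p = 0.0401) without that library. BAX was at 129.7 CPM in SCR DMSO replicate 2 against 63.0 and 54.9 CPM in replicates 1 and 3, and 69.8 to 79.1 CPM in SCR AAI. Its log2 difference was -0.05 (interval -0.81 to 0.70) and became 0.32 without replicate 2, so that 1 library set the sign. The other BH3-only members gave log2 differences of 0.49 for BAD (adjusted p = 0.404), 0.43 for BCL2L11 (0.344) and -0.04 for BID (0.936). In bulk RNA, fewer cells expressing a gene and less RNA per cell cannot be told apart, and this holds for every difference given here.

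The second comparison asked the same of cells with POLR2A knocked down. BBC3, BCL2, BAK1 and MCL1 fell and PMAIP1 rose. These 4 and 1 of 10 members stand beside 21.8% of all genes that fell and 30.4% that rose at the adjusted p. The share of members that fell was above that of all genes, and the share that rose was below it. With 10 members this departure was not tested. BBC3 levels were 11.8, 15.4 and 13.8 CPM in siB DMSO and 7.51, 4.48 and 3.70 CPM in siB AAI. The highest AAI library was clearly below the lowest DMSO library. The log2 difference was -1.27 (SE 0.23, interval -1.79 to -0.75, adjusted p = 0.00153), and BBC3 was called lowered in all 15 alternatives, the replicate block and each left-out library included. It was the 1 member past both limits, with 0 raised, against 13.9% raised and 5.79% lowered of 14928 genes.

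PMAIP1 was at 86.7, 69.7 and 77.8 CPM in siB DMSO and at 167, 139 and 158 CPM in siB AAI. Again no library of one group reached the other. The log2 difference of 0.98 (SE 0.12, interval 0.71 to 1.25, adjusted p = 1.7e-04) lay just under the 2-fold limit. It crossed that limit without siB DMSO replicate 1 (1.06) and without siB AAI replicate 2 (1.05).

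Smaller decreases were found on the pro-survival side. BCL2 was at 37.1, 25.0 and 25.3 CPM in siB DMSO and 20.8, 14.7 and 17.95 CPM in siB AAI. The groups were separate, with siB DMSO replicate 1 the highest. BCL2 fell by 0.67 on the log2 scale (SE 0.19, adjusted p = 0.0158), but not past the threshold without siB AAI replicate 2 (adjusted p = 0.0625) or with the spread of all 4 groups (0.127). MCL1 was at 327, 261 and 237 CPM in siB DMSO and 230.3, 189 and 211 CPM in siB AAI. The groups were separate, although siB DMSO replicate 3 and siB AAI replicate 1 nearly met. MCL1 fell by 0.38 (SE 0.13, adjusted p = 0.0392), a value past the threshold in 8 of 15 alternatives. It was lost without siB DMSO replicate 1 (adjusted p = 0.0861) or 2 (0.0723) and without siB AAI replicate 2 (0.125) or 3 (0.0946). BCL2L1 was at 421, 467 and 465 CPM against 390, 384 and 427 CPM, and its log2 difference was -0.17 (interval -0.39 to 0.05, adjusted p = 0.162).

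BAK1 was at 54.7, 57.2 and 65.1 CPM in siB DMSO and 33.8, 45.7 and 50.1 CPM in siB AAI. All AAI libraries were below all DMSO libraries. BAK1 fell by 0.46 (SE 0.16, adjusted p = 0.0351), again in 8 of 15 alternatives. It was lost without siB DMSO replicate 2 (adjusted p = 0.0721) or 3 (0.132) and without siB AAI replicate 1 (0.0743) or 2 (0.0541). BAX had a log2 difference of -0.25 (interval -0.50 to -0.0043, adjusted p = 0.0809) and BID one of -0.22 (interval -0.46 to 0.02, adjusted p = 0.111), and each group pair was separate. With libraries scaled by median-ratio size factors these were past the threshold, at 0.0374 for BAX and 0.0456 for BID, and likewise without siB DMSO replicate 1, at 0.0469 and 0.0489. BCL2L11 (0.14, adjusted p = 0.425) and BAD (-0.13, adjusted p = 0.584) did not pass.

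Without overlap between siB DMSO and siB AAI, 1 member was higher and 6 were lower, against 34.2% and 26.6% of all genes. The median log2 difference of the members was -0.24 in siB cells, beside 0.10 over all genes tested, and 0.06 in SCR cells, beside 0.18. Median-ratio scaling moved the median of all genes to -0.01 in both comparisons. Under it PMAIP1 stood at 1.13 in SCR and 0.86 in siB cells and BBC3 at -1.37 in both, while BCL2L1 and MCL1 in SCR cells turned to -0.08 and -0.20. The summed kidney epithelium markers were lower with AAI in both backgrounds, at 1793 to 1996 against 2044 to 2639 CPM in SCR cells and 1541 to 1642 against 2163 to 2306 CPM in siB cells. So were the summed fibroblast markers, at 22.5 to 27.2 against 31.3 to 54.0 CPM in SCR cells. In siB cells they were at 13.2 to 24.9 against 33.3 to 36.0 CPM. Their sum was mostly COL1A1, while the low means of COL1A2, DCN and PDGFRA were higher with AAI in both backgrounds and PDGFRB lower. Summed proximal tubule markers overlapped in SCR cells and were lower with AAI in siB cells (144 to 147 against 171 to 194 CPM). Of these, SLC5A2 averaged 15.1 against 3.75 CPM in SCR and 16.8 against 5.11 CPM in siB cells, AAI first. Most of the sum was GGT1, at 112 against 130 CPM and 121 against 175 CPM in the same order. ANPEP averaged 3.08 against 0.110 CPM in siB cells. Of the 4 proximal tubule markers tested there, 2 were higher and 2 lower with AAI. Summed endothelial markers were higher in siB AAI (3.75 to 5.62 CPM) than in siB DMSO (1.39 to 1.94 CPM) and overlapped in SCR cells. The rise in siB cells was mostly PECAM1, from a mean of 1.13 to 4.65 CPM. VWF went from 0.434 to 0.0568 CPM, and CDH5 and KDR were near 0. Summed leukocyte markers overlapped in both backgrounds. In siB cells PTPRC went from a mean of 0.485 to 2.70 CPM with AAI and CD68 from 77.2 to 68.7 CPM. The part of these markers in the differences of the members was not tested.

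**Figure D2:**
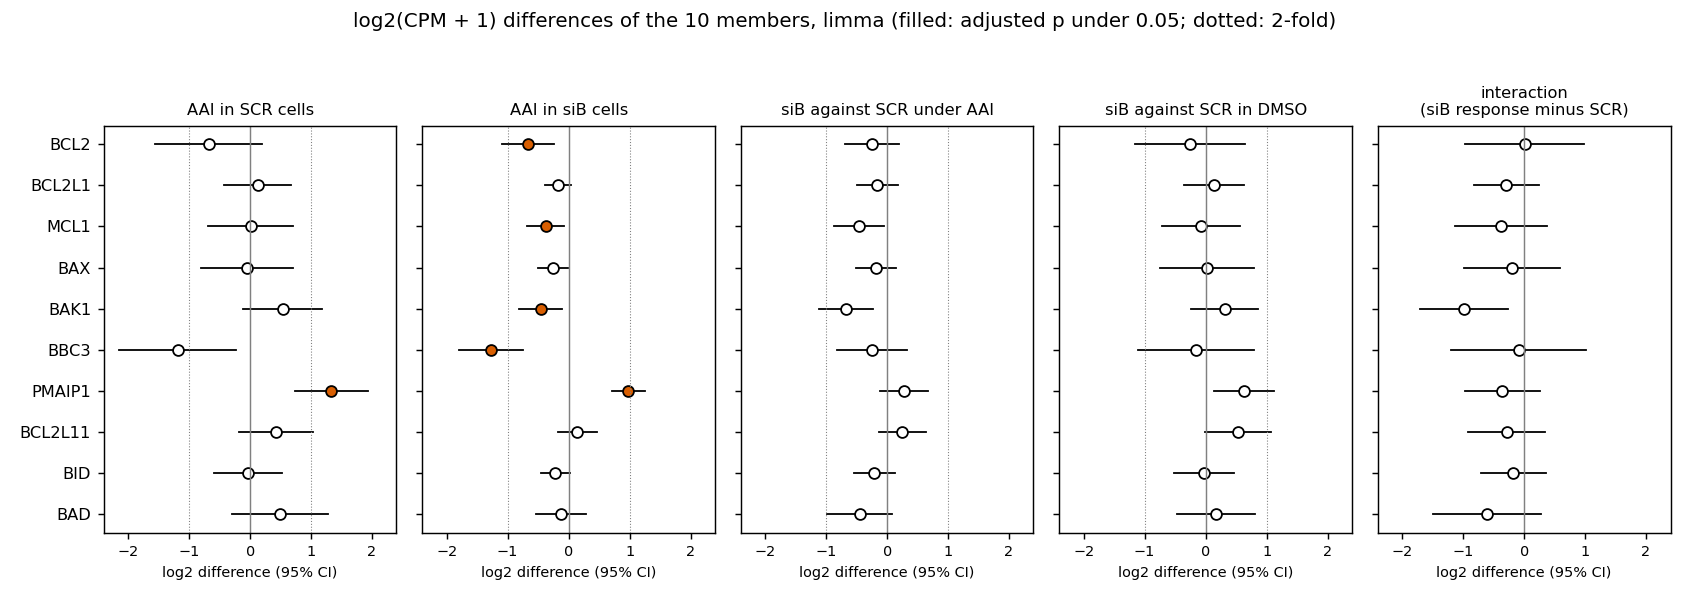
Differences in log2(CPM + 1) for the 10 members (rows) in the 4 comparisons and the interaction (panels), with 95% confidence intervals from limma as lines, filled points at an adjusted p under 0.05 and dotted lines at 2-fold. PMAIP1 (1.33) is the filled point for AAI in SCR cells, 5 points are filled for AAI in siB cells, and no point is filled in the other 3 panels.

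The third comparison set siB AAI against SCR AAI, the effect of knocking down POLR2A in injured cells. It shares the AAI libraries with the comparisons above, so the values are not independent of them. No member was called: 0 of 10, with 3.04% of 14946 genes raised and 0.629% lowered. At an unadjusted p under 0.05, BAK1 and MCL1 were lower and 0 members were higher, against 12.2% and 13.3% of all genes, and voom called 0 members as well. BAK1 was at 56.8, 88.0 and 65.2 CPM in SCR AAI and 33.8, 45.7 and 50.1 CPM in siB AAI. The 3 siB libraries lay below the 3 SCR libraries, with SCR AAI replicate 2 far above the rest. The log2 difference was -0.68 (SE 0.20, interval -1.12 to -0.24, adjusted p = 0.0567). It passed the threshold without SCR AAI replicate 1 (-0.82, adjusted p = 0.0103) and with the replicate block (1.0e-04), still under the 2-fold limit.

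MCL1 was at 337, 217 and 330 CPM in SCR AAI and 230.3, 189 and 211 CPM in siB AAI. SCR AAI replicate 2 overlapped the siB group. The log2 difference was -0.46 (interval -0.87 to -0.06, adjusted p = 0.142), or -0.67 without SCR AAI replicate 2 (adjusted p = 0.0328), and the block gave 0.00708. BAD was at 48.1, 63.3 and 31.5 CPM in SCR AAI and 31.2, 43.0 and 27.3 CPM in siB AAI. Each siB library was below the SCR library of the same number, while the groups overlapped. The log2 difference was -0.45 (interval -0.99 to 0.09, adjusted p = 0.277), with 0.0166 under the block.

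In the blocked fit limma took the spread of each gene wholly from the trend over all genes. With it 3 members (BAK1, MCL1 and BAD) were lower at the adjusted p and 0 were higher, against 13.8% of all genes lower and 15.2% higher. Without it 0 members were lower or higher, where 3.79% of genes were lower and 5.49% higher. BID was the other member without overlap, at 58.0 to 68.7 CPM in SCR AAI and 52.4 to 53.9 CPM in siB AAI, with a log2 difference of -0.21 (adjusted p = 0.432). These 2 of 10 members lower without overlap stand beside 15.8% of all genes. The remaining log2 differences ran from -0.25 for BCL2 and BBC3 to 0.28 for PMAIP1 (interval -0.11 to 0.67, adjusted p = 0.362).

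Without AAI, no member and none of the 13606 genes tested passed an adjusted p of 0.05 between siB and SCR by limma (0% called). At an unadjusted p under 0.05, 3.52% of genes were higher and 1.21% lower, and voom in limma called 0 members as well. PMAIP1 was the 1 member past that unadjusted limit, with a log2 difference of 0.63 (interval 0.14 to 1.12, limma adjusted p = 0.9998). Its siB libraries (69.7 to 86.7 CPM) were all above the SCR libraries (39.1 to 60.5 CPM). BCL2L11 was also separate, at 46.0 to 57.3 CPM in siB DMSO and 26.0 to 43.6 CPM in SCR DMSO, with a log2 difference of 0.53 (interval -0.01 to 1.07). These 2 members higher without overlap compare with 8.28% of all genes, and 0 members with the 3.64% of genes that were lower without overlap. The intervals of the other 8 reached -1.16 on the log2 scale for BCL2, so the SCR DMSO spread leaves sizeable differences undetectable.

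The interaction asked whether the AAI response differed between siB and SCR cells. No member passed an adjusted p of 0.05, by limma or voom, where 1.46% of 15325 genes lay above 0 and 0.157% below. Of the 10 estimates 9 were below 0, with a median of -0.29 beside -0.06 over all genes. They share the same 12 libraries and are not separate results, and the share of all genes below 0 was not computed. Also below 0 were 11 of 14 further BCL2 family and BH3-like genes and 17 of 20 genes of the mitochondrial apoptosis machinery. So were 9 of 14 death receptor genes and 6 of 15 known regulators. Among the members BAK1 had the largest estimate, -0.99 (SE 0.33, interval -1.71 to -0.27, unadjusted p = 0.0113, adjusted p = 0.193). It was higher with AAI in SCR cells by 0.53 and lower in siB cells by 0.46, and without SCR DMSO replicate 2 the interaction was -1.22 with an adjusted p of 0.0248. The interactions of PMAIP1 (-0.36, interval -0.97 to 0.26, adjusted p = 0.688) and BBC3 (-0.09, interval -1.19 to 1.02, adjusted p = 0.982) did not pass. The call of PMAIP1 in SCR cells and its value under 2-fold in siB cells are therefore not shown to differ, and neither are the values of BBC3.

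Ratios between members were taken within each library, where total depth cancels. The pairs were chosen after the levels were seen, so they are given without a test. PMAIP1 to MCL1, a BH3-only protein over its main partner, was 0.144, 0.178 and 0.202 in SCR DMSO and 0.469, 0.470 and 0.385 in SCR AAI. It was 0.265, 0.267 and 0.328 in siB DMSO and 0.724, 0.732 and 0.751 in siB AAI. The 4 groups did not overlap, in the order SCR DMSO, siB DMSO, SCR AAI and siB AAI. Of the pairs computed, PMAIP1 to MCL1 alone separated all 4 groups. BCL2 to BAX, BCL2L1 to MCL1 and BAX to BAK1 were also computed and overlapped between groups. Pairs of other genes were not examined, so how common such a separation is was not tested. PMAIP1 to BCL2L11 was 1.44 ± 0.0597 and 1.55 ± 0.128 in the DMSO groups (SD, n = 3) and 2.72 ± 0.195 and 2.78 ± 0.327 in the AAI groups, SCR first, so siB and SCR overlapped there. PMAIP1 to BBC3 was 3.87 ± 2.34 in SCR DMSO, 21.1 ± 5.16 in SCR AAI, 5.85 ± 1.44 in siB DMSO and 32.0 ± 10.3 in siB AAI. BCL2L1 to BAX was 5.47 ± 1.40 in SCR DMSO, 6.08 ± 0.667 in SCR AAI, 5.81 ± 0.0565 in siB DMSO and 6.17 ± 0.361 in siB AAI, and its spread within SCR DMSO (4.18 to 6.96) was wider than that of the 4 means.

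**Figure D3:**
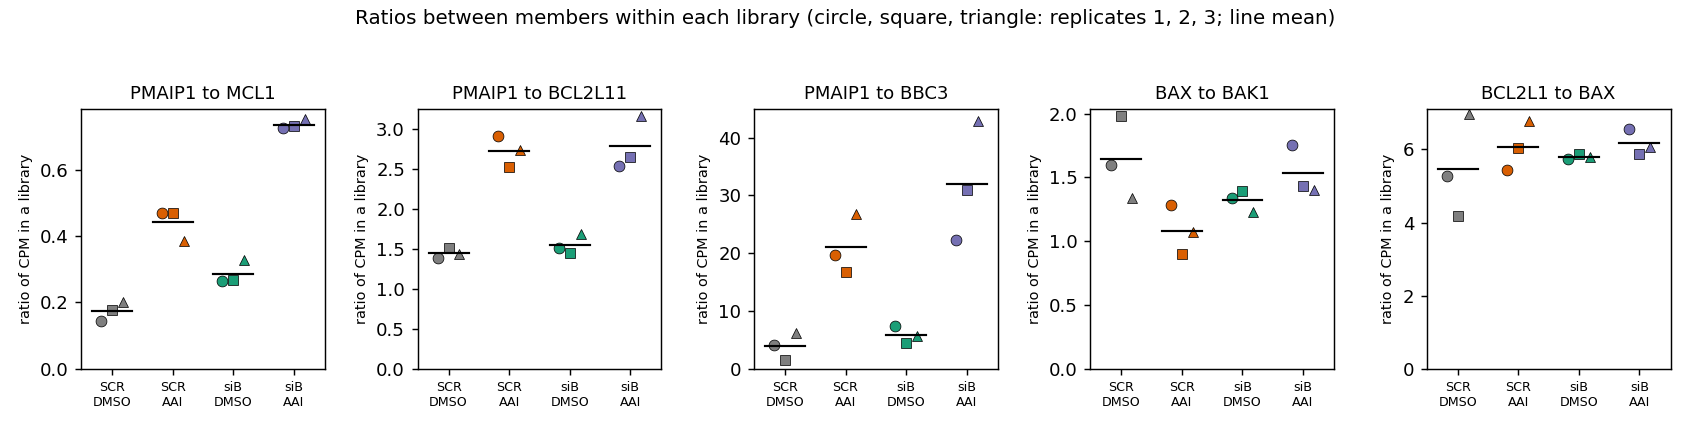
Ratio of the CPM of 2 members within each library (vertical axes, linear, from 0) for the 4 groups, with replicates 1, 2 and 3 as circle, square and triangle and the mean as a line. PMAIP1 to MCL1 separates all 4 groups (means 0.175, 0.441, 0.286 and 0.736 from left to right), while BCL2L1 to BAX overlaps between groups, with means from 5.47 to 6.17.

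By role, the 5 BH3-only members together held 67.9 ± 6.14 CPM per kb in SCR DMSO, 109.8 ± 14.9 in SCR AAI, 82.9 ± 0.810 in siB DMSO and 112 ± 5.26 in siB AAI. The 3 pro-survival members held 151 ± 15.9, 156 ± 10.1, 154 ± 2.68 and 131 ± 6.97 CPM per kb in the same order. The pore-forming pair held 53.9 ± 22.4, 60.2 ± 8.91, 56.7 ± 3.71 and 44.6 ± 5.90 CPM per kb. Within the BH3-only members, PMAIP1 took 25.5% ± 6.94 of their summed CPM in SCR DMSO and 44.03% ± 5.43 in SCR AAI, and 32.4% ± 3.04 and 51.0% ± 3.38 in siB cells. The BBC3 share was 8.22% ± 4.03 and 2.13% ± 0.320 in SCR cells and 5.68% ± 0.849 and 1.71% ± 0.549 in siB cells, DMSO first. The rest of the summed CPM came from BID, BCL2L11 and BAD.

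PMAIP1 had the widest range of group means of the 10 members, 1.61 on the log2(CPM + 1) scale, followed by BBC3 (1.43), and BCL2L1 the narrowest (0.17). The genes whose levels ran most like PMAIP1 over the 12 libraries, among 15320 genes, were NRBF2 (Pearson r = 0.987), BECN1 (0.984) and LRRC37A3 (0.981). NRBF2 and BECN1 encode parts of the autophagy lipid kinase complex, and BECN1 carries a BH3-like motif. With AAI the level of BECN1 went from 47.8 ± 5.03 to 73.4 ± 11.9 CPM in SCR cells and from 58.8 ± 2.19 to 82.2 ± 6.63 CPM in siB cells. These correlations describe libraries that share treatment groups and depth, and no p is attached to them.

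The other genes of the pathway were read from 4 lists by their counts. Of 15 further BCL2 family and BH3-like genes, 13 were tested with AAI in SCR cells. Of these 1 was raised and 0 lowered (median log2 difference 0.19), against 7.73% and 2.73% of all genes. In siB cells 12 were tested, of which 1 was raised and 2 lowered (median -0.11), against 13.9% and 5.79%. BOK, a BAX-like family member, averaged 138 ± 54.8 CPM in SCR DMSO, 65.0 ± 8.57 in SCR AAI, 122 ± 17.0 in siB DMSO and 43.8 ± 2.88 in siB AAI. It fell by 1.45 on the log2 scale in siB cells (adjusted p = 2.5e-05), and in SCR cells its difference was -1.01 (adjusted p = 0.0635). There BOK was called lowered in 3 of 15 alternatives: with the replicate block (adjusted p = 0.0143), with the spread of all 4 groups (0.0072) and without SCR DMSO replicate 1 (-1.20, adjusted p = 0.0412). Without SCR DMSO replicate 2 it was -0.71, under the 2-fold limit, with an adjusted p of 0.0352. BNIP3L, a mitophagy receptor, fell by 1.01 in siB cells (adjusted p = 0.00149). BCL2L14 rose there by 1.43 (adjusted p = 1.98e-04), between low levels of 0.321 ± 0.200 and 2.54 ± 0.236 CPM. BCL2L10 had at most 2 reads in any SCR DMSO library and 1.72 ± 0.569 CPM in SCR AAI, at least 16.2-fold higher than the 0.106 CPM that 3 reads per library stand for on average, and was called raised (adjusted p = 0.00324). It was too low to be tested in the siB comparison, with 1.86 ± 1.13 CPM in siB AAI.

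Of 20 genes of the mitochondrial apoptosis machinery, 0 were called in SCR cells by limma without a block or by voom (median log2 difference 0.29). At an unadjusted p under 0.05 in limma, 3 were higher and 1 lower, where 17.9% of all genes were higher and 9.1% lower. With the replicate block 1 was raised and 0 lowered, where 9.69% of all genes were raised and 3.79% lowered. In siB cells 1 was raised and 1 lowered, with 6 higher and 4 lower at the adjusted p alone, no larger a share than the 30.4% and 21.8% of all genes. BIRC6, a large inhibitor of apoptosis protein, rose by 1.07 (adjusted p = 9.4e-04), and CASP6, an effector caspase, fell by 1.15 (adjusted p = 1.85e-04), from 26.9 ± 0.673 to 11.7 ± 1.55 CPM. The BIRC6 difference was 0.97 without siB DMSO replicate 2 and 0.95 without replicate 3, and with the spread of all 4 groups its adjusted p was 0.0895.

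Of 14 genes on the death receptor side, 0 were raised and 1 lowered in SCR cells, against 7.73% and 2.73% of all genes. In siB cells 1 was raised and 3 lowered, against 13.9% and 5.79%. BIRC7, an inhibitor of apoptosis protein, fell by 1.40 in SCR cells (adjusted p = 0.0221) and by 1.82 in siB cells (adjusted p = 3.7e-04), from 4.54 ± 1.87 to 1.05 ± 0.432 CPM and from 5.03 ± 1.43 to 0.731 ± 0.538 CPM. In SCR cells this was lost without SCR DMSO replicate 3 (adjusted p = 0.0769), SCR AAI replicate 2 (0.0856) or SCR AAI replicate 3 (0.110). In siB cells TRADD, an adaptor of the TNF receptor, fell by 1.27 (adjusted p = 1.39e-04), TNFSF10, the ligand TRAIL, fell by 1.17 (adjusted p = 9.2e-04) and CASP10, an initiator caspase, rose by 1.01 (adjusted p = 2.0e-04). TNFSF10 missed the threshold with the spread of all 4 groups (0.0805).

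Of 17 known regulators of the members, 14 were tested in SCR cells. There 1 was raised and 1 lowered, against 7.73% and 2.73% of all genes. In siB cells 15 were tested, with 1 raised and 0 lowered, against 13.9% and 5.79%. E2F1, a cell cycle transcription factor that can induce BH3-only genes, rose by 1.23 in SCR cells (adjusted p = 0.0089) and by 1.003 in siB cells (adjusted p = 7.2e-05). It averaged 119 ± 22.2, 278 ± 33.9, 160.1 ± 16.1 and 321 ± 17.4 CPM in SCR DMSO, SCR AAI, siB DMSO and siB AAI. TRIM17, a ubiquitin ligase that acts on MCL1, fell by 1.15 in SCR cells (adjusted p = 0.0057), from 2.33 ± 0.406 to 0.495 ± 0.102 CPM. In siB cells TRIM17 also fell, by 0.75 (adjusted p = 0.0093), from 2.42 ± 0.541 to 1.03 ± 0.288 CPM, under the 2-fold limit. With 0.1 as pseudocount or with voom, 1 regulator was called lowered in siB cells. Several of these calls in siB cells sat at the 2-fold limit: E2F1 was at 0.92 without siB DMSO replicate 1 and 0.96 without siB AAI replicate 3, BNIP3L at -0.87, -0.88 and -0.95 without siB DMSO replicate 1, siB AAI replicate 2 and siB AAI replicate 3, and CASP10 at 0.99 and 0.94 without siB DMSO replicate 3 and siB AAI replicate 1. With median-ratio scaling E2F1, CASP10 and BIRC6 were under 2-fold in siB cells (0.89, 0.90 and 0.96), and E2F1 in SCR cells had an adjusted p of 0.0556.

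**Figure D4:**
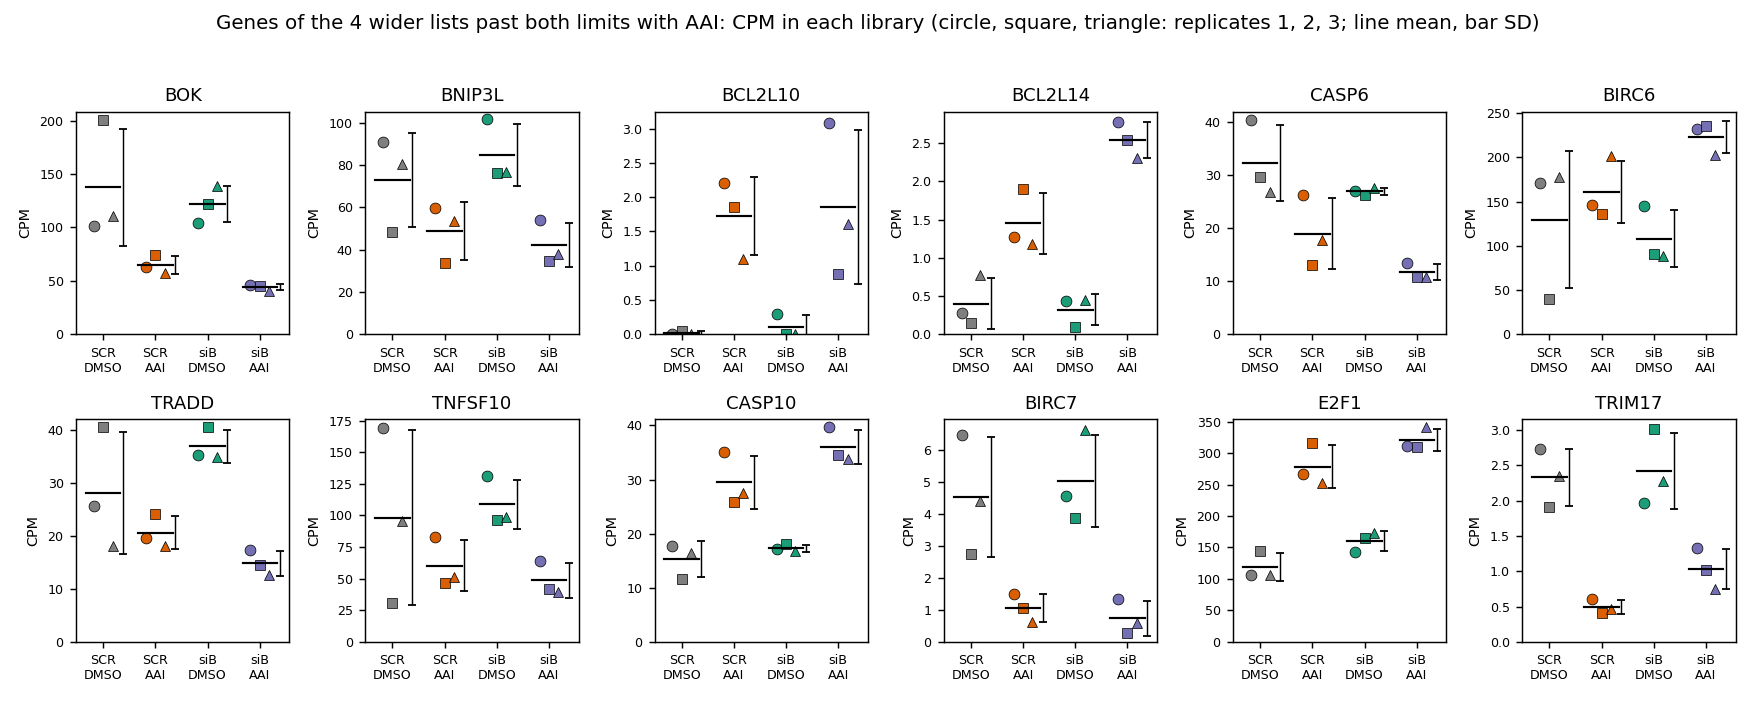
CPM in each library (vertical axes, linear, from 0) of the 12 genes of the 4 lists past the adjusted p and 2-fold limits with AAI in SCR or siB cells, with replicates 1, 2 and 3 as circle, square and triangle, the mean as a line and the SD as a bar. BOK is lower in all 6 AAI libraries, E2F1 is higher in all 6, and BCL2L10 reaches at most 3.09 CPM.

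Between siB AAI and SCR AAI, 0 genes of the 4 lists were called, although ATF4 lay at the 2-fold limit. Of all genes 3.04% were raised and 0.629% lowered. At the adjusted p alone, 1 death receptor gene rose and 1 fell, and 1 regulator fell, where 5.49% of all genes rose and 3.79% fell. TNFRSF10B, a TRAIL receptor, rose by 0.77 (adjusted p = 0.0112), TNFRSF1A, the TNF receptor, fell by 0.61 (0.0366), and ATF4, a stress response transcription factor known to induce PMAIP1, fell by 0.99 (0.00433). ATF4 was called lowered in 5 of 15 alternatives: without AC010970.2 (-1.01), SCR AAI replicate 1 (-1.04) or 2 (-1.03), or siB AAI replicate 2 (-1.07) or 3 (-1.03). With the replicate block, 5 of the 60 list genes tested were higher at the adjusted p and 10 lower. Over all genes 15.2% were higher and 13.8% lower with the block. Again 0 of the list genes were past 2-fold. Between siB DMSO and SCR DMSO, 0 of 61 list genes passed in limma or in voom. In limma 4 were higher and 0 lower at an unadjusted p under 0.05, against 3.52% and 1.21% of all genes. In the interaction 0 of 63 passed in either, with 0 above and 4 below 0 at that unadjusted limit, against 6.75% and 6.51% of all genes, and with the block 1 death receptor gene was below 0.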

How the data were processed

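The data were 12 poly(A) RNA sequencing libraries of HK-2 cells, grouped by sample title, since the treatment label read DMSO for every sample. Per the study's methods and labels, paired-end reads were aligned by the authors to hg38, and BioJupies with a UCSC annotation gave gene counts. The aligner and whether counting used strand were not given in the sources used here, so reads of BCL2L1, BAK1, BCL2L11 and BAD, which overlap genes on the opposite strand, could include those of their neighbours, as could those of BCL2 and MCL1. The authors deposited log10 values, log10 of CPM plus 1. CPM was computed as 10 to the deposited value minus 1. Whole reads were recovered within a tolerance of 0.1 read and gave the depth; 3 reads corresponded to 0.0701 to 0.189 CPM, counting error only. Replicates of a group differed beyond sampling noise (chi-square per degree of freedom at least 4.23). Of the gene names 28 had become dates, and 7627 genes were at 0 in all libraries.

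Differences were tested on log2(CPM + 1) using limma 3.58.1 under R 4.3.3 (lmFit and trended eBayes), 2 groups at a time, on genes with at least 1 CPM in at least 3 libraries fitted. The Benjamini-Hochberg correction ran over all genes tested, and every adjusted p is from this fit unless another setting is named. A gene rose or fell at an adjusted p under 0.05 and was called raised or lowered if it also changed at least 2-fold. The interaction was fitted over all 12 libraries with no fold limit. The fits were tested on simulated counts, which had no outlying library such as SCR DMSO replicate 2. That test checked the code and not how the fits behave with the spread of these libraries. Because the values were logs, voom on recovered reads served only as an alternative. Further settings tried were median-ratio size factors, a filter at a mean of 5 CPM or none, 0.1 as pseudocount, CPM without the variable transcript AC010970.2, no trend, all 4 groups, a replicate block and each library left out.

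Replicate numbers came from the titles. Whether they paired libraries was checked by correlating how far libraries of equal number deviated from the mean of their group, over 15325 genes. Libraries of unequal number were not correlated, so this check cannot settle whether numbers paired libraries. Every pair was above 0.1 for SCR AAI with SCR DMSO (0.422, 0.473 and 0.338) and for siB AAI with SCR AAI (0.614, 0.318 and 0.292), so blocked values stand beside those results where they changed a call.

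Named genes were the 10 members, list genes past the call limits or, between siB AAI and SCR AAI, past the adjusted p, the 3 genes most like PMAIP1, and POLR2A. The result for 1 list gene is not reported here. Members and lists were chosen with earlier results of these data known. Gene spans and exon lengths came from GENCODE release 44 on hg38, and upstream windows from RefSeq (GRCh38.p14), which matched 9 of 10 members in 15 windows. MCL1 had no entry.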

Additional observations from a re-analysis of the deposited data

How the results depend on the processing

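The number of members called with AAI in SCR cells was 1, and 2 with the replicate block or with all 4 groups in the fit, where BBC3 was added. It ran from 0 to 1 when 1 library was left out. In siB cells it was 1, with 1 to 2 when 1 library was left out. In the interaction it was 0, with 0 to 1, the call being BAK1 without SCR DMSO replicate 2. Between siB and SCR under AAI and in DMSO it was 0 under all alternatives run. Of 800 repeats of single-member differences, 732 kept direction and side of the threshold, 19 lost it, 13 gained it and 36 changed sign, the last all in differences that passed no threshold. The cause of these changes was not tested.

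Median-ratio scaling turned BCL2L1 (-0.0798) and MCL1 (-0.20) with AAI in SCR cells and BAX between siB and SCR in DMSO (-0.0665, and -0.0139 with voom). BCL2 in the interaction became -0.0179 without AC010970.2 and -0.0506 with voom. With 1 library left out, log2 differences crossed 0 for BCL2L1 (-0.0270 to 0.32), MCL1 (-0.19 to 0.28), BAX (-0.29 to 0.32) and BID (-0.20 to 0.14) with AAI in SCR cells, and for BAD with AAI in siB cells (-0.31 to 0.0115). In DMSO they did so for BCL2 (-0.49 to 0.15), BCL2L1 (-0.0152 to 0.34), MCL1 (-0.27 to 0.19), BAX (-0.22 to 0.39), BBC3 (-0.54 to 0.24), BID (-0.19 to 0.16) and BAD (-0.0749 to 0.39), and in the interaction for BCL2 (-0.40 to 0.24), BAX (-0.58 to 0.0369) and BBC3 (-0.49 to 0.29).

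Not every correlation was above 0.1 for siB AAI with siB DMSO (0.210, 0.0259 and 0.195) or for siB DMSO with SCR DMSO (0.726, 0.587 and -0.193). There the block left 1 and 0 members called, as without it. Beside the calls given with the results, the block changed no other call of a member. With 3 libraries a group, the spread of SCR DMSO limited what could be detected in this group's comparisons more than depth did, since every member had at least 69 reads in each library.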
